A study of Mus musculus with 9 samples.

Results

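The genes described here are 39 genes of the cell division cycle, chosen by name with earlier results of these data known. Of these, 14 act at entry into S phase or in DNA synthesis, 22 act in mitosis or rise towards it, and 3 act in G1 or hold the cycle back. RNA of kidney cortex was hybridised to 9 Affymetrix arrays, with 3 biological replicates in each of 3 groups according to the labels. The db/db+TSF mice carry 2 mutant copies of the leptin receptor gene and were given TSF (Tang-shen Formula, a herbal mixture of Chinese medicine) by stomach tube at 2.4 g/kg/day for 12 weeks. The db/db mice have the same genotype and received saline. The db/m mice carry 1 mutant copy and are lean, and the labels do not say what they were given. All mice were male, 20 weeks old and of the C57BLKS/J background. The leptin receptor mutation is present in every cell of db/db mice, so effects on the kidney cannot be told apart from those of obesity and high glucose. The labels count 9 mice for db/db+TSF and 9 for db/db, and do not say how the 3 arrays of a group relate to those mice. If the replicates within a group share tissue or handling, the p-values measure only the spread between these arrays.

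A cell that divides copies its DNA in S phase and separates the copies in mitosis. Cyclins D and E with their kinases release the E2F transcription factors, which raise the genes of DNA synthesis, and the mitotic genes follow under the MuvB complex, B-MYB and FOXM1. Most tubule cells of the adult kidney rest outside the cycle, and tubules re-enter it after injury. In obesity and diabetes the kidney enlarges, mostly by growth of existing cells, with the CDK inhibitor p21 (Cdkn1a) known to be involved in animal models.

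Of the 39 genes 37 had a probe set with a single gene symbol. Ccne2 (cyclin E2) was on a probe set that also carries another gene's name and Ccnb1 (cyclin B1) had none under its own name, so neither is given a value. All 37 passed the filter on low values and were tested among 17740 genes, out of 22180 with such a probe set. Levels below are log2(intensity + 1) of the brightest probe set of each gene. Probe sets differ in their binding, so a level says how bright a probe set was and not how much RNA one gene had against another. The median probe set lay between 3.50 and 3.61 on this scale in the 9 arrays. Mitotic members were dim, with a median of 3.82, and S phase members were brighter, with a median of 5.90. Proximal tubule markers, which define most of the cortex, averaged 11.12 to 11.24 in all 9 arrays.

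**Figure D1:**
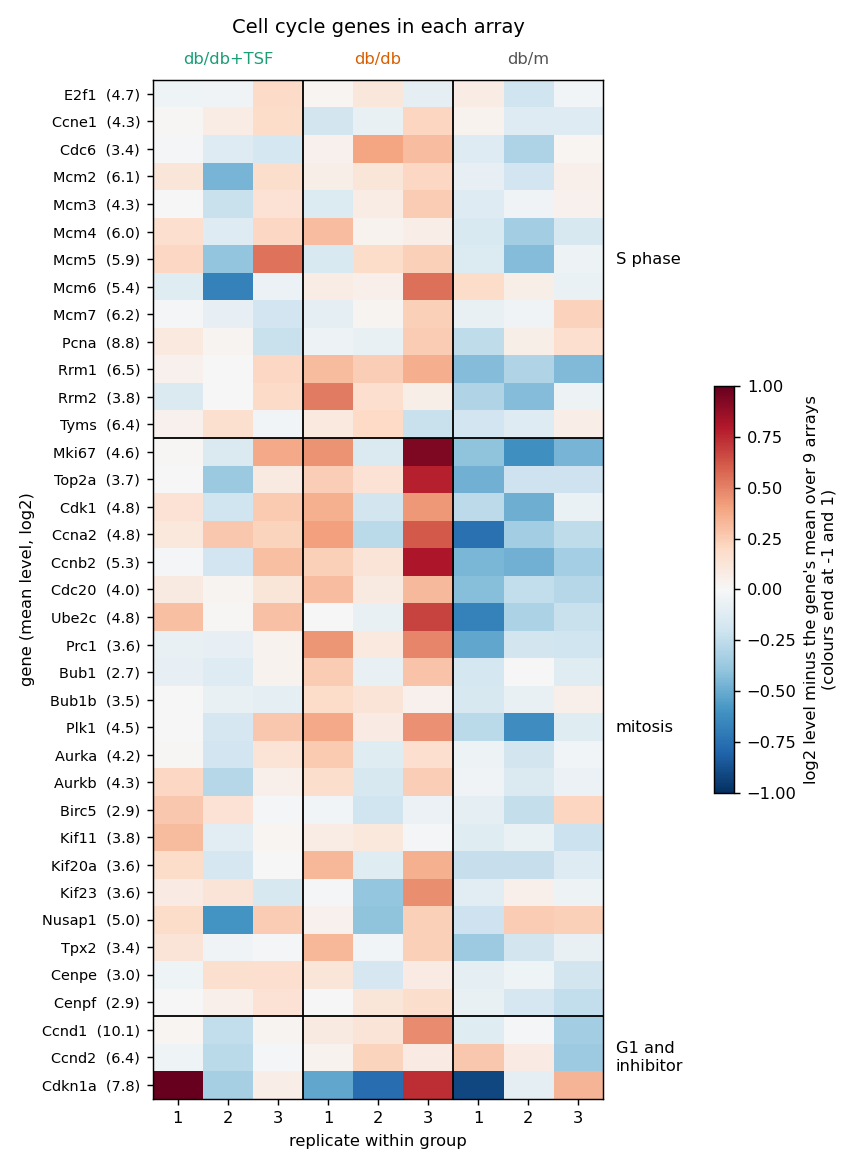
Heat map of the 37 measured cell cycle genes (rows, with each gene's mean level in parentheses) in the 9 arrays (columns, by group and replicate). Colour is the log2 level minus the gene's own mean over the arrays, with colours ending at -1 and 1. Mitotic genes are mostly above their mean in db/db replicates 1 and 3 and below it in the 3 db/m arrays, and Cdkn1a varies within every group.

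The question of the first comparison is how the cell cycle genes of diabetic db/db cortex differed from those of lean db/m cortex. In db/db cortex 3 members rose: Rrm1, the large subunit of ribonucleotide reductase that makes the building blocks of DNA, Cdc20, which activates the ubiquitin ligase of anaphase, and Prc1, which bundles microtubules at the spindle midzone. Thus 3 of 37 members passed an adjusted p of 0.05 in the higher direction, against 0.592% of all genes tested, and 0 in the lower direction, against 0.462%. Of the 37 members 35 lay above 0, against 52.2% of all genes tested, with a median log2 difference of 0.26 beside 0.01 over all genes tested. At an unadjusted p under 0.05, 18 members were higher, against 8.15% of all genes tested, and 0 lower, against 5.79%.

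Rrm1 had the smallest p of all members. It measured 6.83, 6.76 and 6.88 in db/db arrays, against 6.08, 6.21 and 6.07 in db/m arrays. The lowest db/db array thus stood above the highest db/m array, and the spread within each group was small (SD 0.06 in db/db and 0.08 in db/m, n = 3 each). The difference was 0.71 (SE 0.09, 1.63-fold on this scale, limma adjusted p = 0.00597), and it passed under each of the 22 alternative settings, with a highest adjusted p of 0.0418. Its probe set was brighter than 74.4% of genes.

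Cdc20 measured 4.27, 4.05 and 4.28 in db/db arrays, against 3.53, 3.71 and 3.67 in db/m arrays. The groups did not overlap, and the difference was 0.56 (SE 0.10, 1.48-fold, limma adjusted p = 0.0233). Prc1 measured 4.0, 3.66 and 4.05 in db/db arrays, against 3.04, 3.38 and 3.36 in db/m arrays, a difference of 0.64 (SE 0.13, 1.56-fold, limma adjusted p = 0.04). In both genes every db/db array stood above every db/m array. Both probe sets were dim, brighter than 44% of genes for Cdc20 and 37.8% for Prc1. Both calls depended on single arrays. Cdc20 did not pass without db/m replicate 1 (adjusted p = 0.0828), db/m replicate 3 (0.0504), db/db replicate 1 (0.0959) or db/db replicate 3 (0.0903). Prc1 did not pass without db/m replicate 1 (0.119), 2 (0.0654) or 3 (0.0688), with db/db replicate 1 (0.143) or 3 (0.135) left out, or when the fit lacked replicate 1 (0.0621), 2 (0.0518) or 3 (0.0673) of db/db+TSF. All 9 arrays share 1 estimate of the spread, which is how an array of the third group enters.

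Promoters are shown for Rrm1, Cdc20 and Prc1, which passed in db/db against db/m, and for Ccnb2 and Mki67, which did not. Each is given as the 250 bases before a RefSeq start site (build GRCm38.p6), which need not be the outermost start of the gene. Cell cycle genes are known for promoter elements that act in S phase or in mitosis. Capitals mark the CCAAT box (CCAAT or, on the other strand, ATTGG), which the factor NF-Y binds, and the cell cycle genes homology region (CHR; TTTGAA or TTCAAA), which the MuvB complex binds. An E2F element (TTTCCCGC, TTTGGCGC or TTTCGCGC, either strand) was also searched and has no match in these 5 windows. The Rrm1 window is chr7:102441445-102441694 on the plus strand. The Cdc20 window is chr4:118437344-118437593 on the minus strand. The Prc1 window, that of the more downstream of its 2 start sites, is chr7:80294226-80294475 on the plus strand. The Ccnb2 window is chr9:70421555-70421804 on the minus strand, and that of Mki67 is chr7:135716380-135716629 on the minus strand. The annotated Prc1 gene begins at 80294445 and the Mki67 gene reaches to 135716450, so parts of these windows lie within the gene.
Rrm1: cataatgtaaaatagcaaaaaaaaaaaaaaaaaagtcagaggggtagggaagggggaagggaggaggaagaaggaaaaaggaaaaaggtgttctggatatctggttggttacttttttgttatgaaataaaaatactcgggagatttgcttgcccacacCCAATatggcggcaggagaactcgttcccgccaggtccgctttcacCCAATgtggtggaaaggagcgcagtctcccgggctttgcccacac
Cdc20: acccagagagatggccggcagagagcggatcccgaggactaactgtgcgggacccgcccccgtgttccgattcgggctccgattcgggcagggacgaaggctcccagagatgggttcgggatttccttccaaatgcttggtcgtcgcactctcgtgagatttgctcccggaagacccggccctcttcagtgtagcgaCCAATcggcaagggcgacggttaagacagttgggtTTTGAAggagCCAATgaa
Prc1: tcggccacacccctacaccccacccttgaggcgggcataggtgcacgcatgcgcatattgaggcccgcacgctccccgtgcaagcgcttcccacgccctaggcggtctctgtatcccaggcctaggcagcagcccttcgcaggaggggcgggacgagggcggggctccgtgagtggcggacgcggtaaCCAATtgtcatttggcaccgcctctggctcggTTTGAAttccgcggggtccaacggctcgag
Ccnb2: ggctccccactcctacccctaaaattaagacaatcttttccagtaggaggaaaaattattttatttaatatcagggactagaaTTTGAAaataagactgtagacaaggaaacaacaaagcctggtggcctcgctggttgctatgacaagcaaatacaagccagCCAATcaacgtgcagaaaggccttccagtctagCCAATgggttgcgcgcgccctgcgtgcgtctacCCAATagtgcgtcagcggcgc
Mki67: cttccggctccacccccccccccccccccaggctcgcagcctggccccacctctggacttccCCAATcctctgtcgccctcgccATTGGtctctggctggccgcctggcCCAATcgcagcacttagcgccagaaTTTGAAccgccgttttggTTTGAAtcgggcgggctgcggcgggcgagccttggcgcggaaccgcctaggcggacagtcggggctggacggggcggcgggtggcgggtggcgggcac

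The window of Rrm1, the S phase gene of the set, holds 2 CCAAT boxes and no CHR match. Cdc20 has a CHR match 18 to 13 bases before its start, between CCAAT boxes that begin 53 and 8 bases before it, and Prc1 has one 30 to 25 bases before its start with a CCAAT box that begins 62 bases before it. The window of the other Prc1 start site holds a CCAAT box and no CHR match. The windows of Ccnb2 and Mki67 hold 3 CCAAT boxes each, with 1 CHR match in Ccnb2 and 2 in Mki67. Plk1, of smaller p than Mki67 in db/db against db/m, is not shown. Its window holds 1 CCAAT box and no CHR match. Each mitotic window shown holds a CHR match, against 8 of 19 windows of all mitotic members with a promoter. RefSeq promoters were matched for 31 of the 39 members. Ccne2, Mcm4, Ccna2, Aurkb, Kif20a, Tpx2, Ccnd1 and Ccnd2 were not among them.

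Among mitotic members 17 of 19 windows (89.5%) held a CCAAT box, against 33.8% of all 32851 windows of the table. A CHR match stood in 8 of the 19 (42.1%), against 16% of all windows, and both elements together in the same 8, against 5.55%. An E2F match stood in 1 of the 19. In S phase members CCAAT stood in 9 of 13 windows (69.2%), CHR in 1 of 13 (7.69%) and E2F in 4 of 13 (30.8%), where 1.53% of all windows held an E2F match. The windows of E2f1 and Cdc6 lay wholly within the annotated gene, and that of Cdc6 held an E2F match. Some others, such as that of Mcm5, overlapped the gene in part. No matches of different elements overlapped in the members' windows. A match of letters is a description of the sequence and not a binding site.

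The other ribonucleotide reductase subunit and the helicase showed smaller or no differences from db/m. Rrm2, the small subunit, measured 4.27, 3.92 and 3.81 in db/db arrays, against 3.45, 3.32 and 3.70 in db/m arrays, without overlap but not past the threshold (0.51, SE 0.14, limma adjusted p = 0.13). Its second probe set, at a mean of 2.01, differed by 0.02. Among the subunits of the MCM2-7 helicase, which opens DNA at replication forks, Mcm4 differed most, at 6.27, 6.0 and 6.03 in db/db arrays against 5.81, 5.61 and 5.80 in db/m arrays (0.36, adjusted p = 0.203). The differences of Mcm2, Mcm3, Mcm5, Mcm6 and Mcm7 ran from 0.02 in Mcm7 to 0.30 in Mcm5, none past the threshold. Subunits of one helicase thus differed among themselves, and which of those gaps exceed error was not tested.

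Cdc6, which loads the helicase, was higher in each db/db array than in any db/m array (3.41, 3.76 and 3.68 in db/db, against 3.24, 3.06 and 3.39 in db/m), with a difference of 0.38 (adjusted p = 0.166). The differences of the remaining S phase members were 0.05 in Pcna, the sliding clamp of DNA polymerase, 0.11 in Tyms, thymidylate synthase, 0.06 in E2f1 and 0.05 in Ccne1 (cyclin E1). The 95% intervals of these 4 differences spanned 0 and reached at most 0.38 upward, in Tyms, and -0.25 downward, in Pcna. Over all 13 measured S phase members 1 rose, 12 did not pass, and the median difference was 0.17. Of the 13, 5 had groups that did not overlap on the higher side, against 10.4% of all genes tested.

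Mitotic members had larger differences with larger spread. Mki67, the proliferation antigen that coats mitotic chromosomes, had the largest difference of all members (0.90, SE 0.22) and did not pass (limma adjusted p = 0.0917). It measured 5.08, 4.49 and 5.57 in db/db arrays, against 4.23, 4.02 and 4.17 in db/m arrays. The groups did not overlap, but the db/db arrays lay far apart. Ccnb2 (cyclin B2) measured 5.57, 5.46 and 6.14 in db/db arrays, against 4.87, 4.85 and 4.99 in db/m arrays, and lay just outside the threshold (0.82, SE 0.17, adjusted p = 0.0503). It passed without db/db+TSF replicate 2 (0.0479) and in 6 of the 13 settings that kept all arrays.

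The mitotic kinase Plk1 measured 4.88, 4.58 and 4.96 in db/db arrays, against 4.23, 3.88 and 4.38 in db/m arrays (0.64, adjusted p = 0.0838). Top2a, the topoisomerase that untangles sister chromatids, measured 3.91, 3.81 and 4.44 in db/db arrays, against 3.18, 3.46 and 3.46 in db/m arrays (0.69, adjusted p = 0.0942). In both genes the lowest db/db array was above the highest db/m array. Ccna2 (cyclin A2) had a difference of 0.70 with overlapping groups, since db/db replicate 2 measured 4.54 and db/m replicate 3 measured 4.55 (adjusted p = 0.142). Ube2c, the ubiquitin-conjugating enzyme that works with Cdc20's ligase, differed by 0.60 (adjusted p = 0.18), and Cdk1, the kinase that drives entry into mitosis, by 0.47 (adjusted p = 0.263). Without db/db replicate 2, Mki67 (1.18, adjusted p = 0.0231) and Ccna2 (0.96, adjusted p = 0.0239) passed.

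Smaller differences were measured for the spindle assembly factor Tpx2 (0.39), the cytokinesis kinesin Kif20a (0.38), the kinetochore genes Cenpf (0.26) and Cenpe (0.12), the checkpoint kinases Bub1 (0.26) and Bub1b (0.18), the Aurora kinases Aurka (0.20) and Aurkb (0.17) and the spindle motor Kif11 (0.19). Differences near or below 0 were those of Kif23, a cytokinesis kinesin (0.06), Birc5, survivin (-0.06), and Nusap1, a spindle protein (-0.14). None of these 12 passed. Over the 21 measured mitotic members 2 rose, 19 did not pass, 11 had groups that did not overlap on the higher side (against 10.4% of all genes tested), and the median difference was 0.38.

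The D-type cyclins and p21 were set apart because they act before S phase or against it. Ccnd1 (cyclin D1), brighter than 98.1% of genes, measured 10.14, 10.18 and 10.52 in db/db arrays, against 9.93, 10.03 and 9.70 in db/m arrays, without overlap (0.39, SE 0.13, adjusted p = 0.214). Ccnd2 (cyclin D2) differed by 0.12 with overlapping groups. Cdkn1a differed by 0.05 (95% interval -1.04 to 1.13), since its arrays varied widely, at 7.33, 7.09 and 8.59 in db/db against 6.94, 7.75 and 8.19 in db/m. These arrays therefore do not settle the size or the direction of a difference in Cdkn1a.

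**Figure D2:**
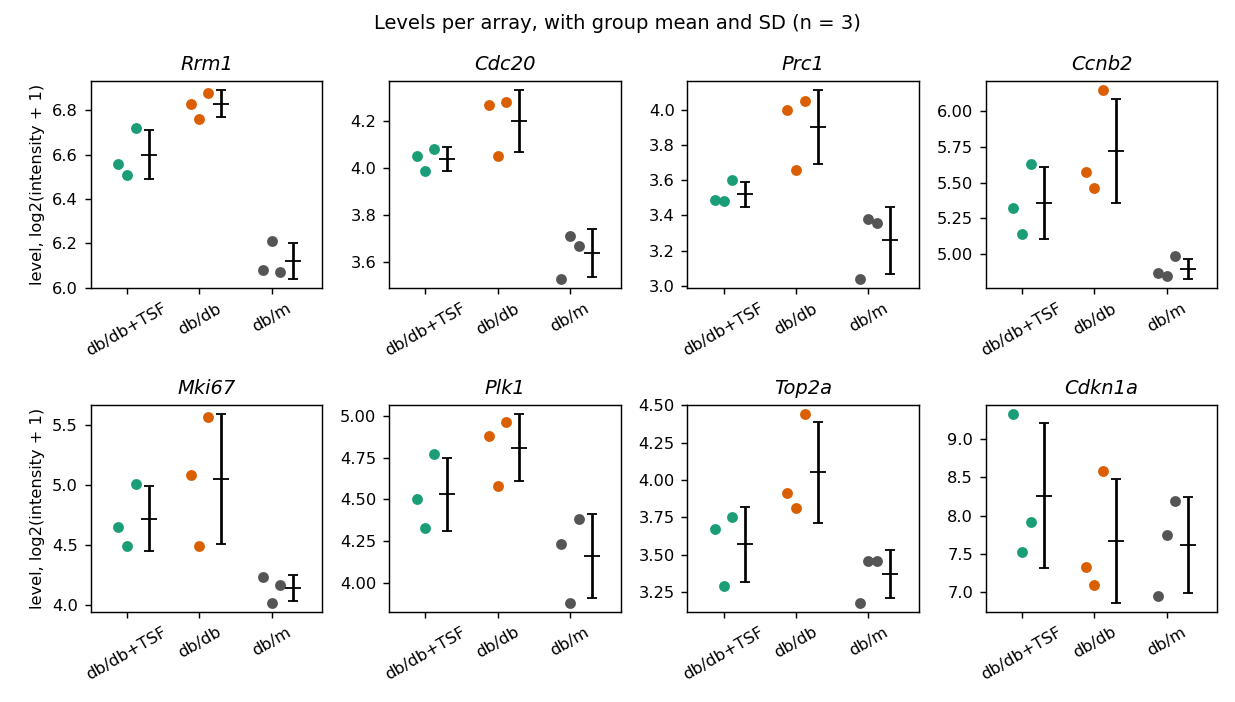
Levels of 8 cell cycle genes on the log2(intensity + 1) scale. Points are arrays, and the bar beside each group is its mean with the SD (n = 3). In Rrm1, Cdc20, Prc1, Ccnb2, Mki67, Plk1 and Top2a every db/db point lies above every db/m point, and in Cdkn1a the 3 groups overlap.

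The contrast of mitosis with S phase rested on 2 of the 3 db/db arrays. The mean centred level of mitotic members (each gene's level minus its own mean over 9 arrays) was 0.22, -0.07 and 0.37 in db/db replicates 1, 2 and 3, against -0.28, -0.22 and -0.13 in db/m. That of S phase members was 0.06, 0.11 and 0.19 in db/db, against -0.12, -0.19 and -0.03 in db/m. Mitotic minus S phase level was therefore 0.15, -0.18 and 0.18 in db/db, against -0.16, -0.03 and -0.11 in db/m, and the groups overlapped. In db/db replicate 2 the level was the lowest of the db/db arrays in 18 of 21 mitotic members but in 4 of 13 S phase members. Without that array the median mitotic difference was 0.50, and the median S phase difference 0.21.

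Markers of several other cell types differed between the groups as well. The 10 neutrophil markers all stood highest in db/db replicate 3, and that array was also the highest of all 9 in 22 of 37 members and in 14 of 21 mitotic members. The summed log2 level of the neutrophil markers ran from 31.6 to 32.8 in db/db+TSF, from 32.0 to 49.3 in db/db and from 31.8 to 32.5 in db/m. None of these markers was at 0. Without db/db replicate 3 the median difference over all members was 0.22 in place of 0.26, 30 of 37 members lay above 0, and 1 member, Rrm1, passed. The 9 measured markers of injured tubule averaged 5.06, 5.02 and 5.5 in db/db replicates 1, 2 and 3, against 4.76 to 4.80 in db/m. Of the 9, 7 had a difference above 0 and 2 below it, Havcr1 (-0.16) and Cd44 (-0.07). Sprr1a (1.64) and Lcn2 (1.07) differed most, and Lcn2 measured 5.47, 5.17 and 7.88 in db/db replicates 1, 2 and 3. The sums of the 9 ran from 43.3 to 46.8 in db/db+TSF, from 45.1 to 49.5 in db/db and from 42.9 to 43.2 in db/m. The 6 measured T cell markers ran the other way, with sums of 19.9 to 21.3 in db/db+TSF, 19.9 to 20.9 in db/db and 22.9 to 23.6 in db/m. Further lists were also higher in each db/db array than in any db/m array. The summed level of the 4 measured erythroid markers was 20.05 to 20.29 in db/db+TSF, 20.64 to 21.41 in db/db and 19.57 to 20.30 in db/m. That of the 7 loop and distal tubule markers was 66.49 to 67.95 in db/db+TSF, 67.31 to 68.24 in db/db and 64.99 to 65.66 in db/m. In the sums of the erythroid, loop and distal tubule, and injured tubule lists, replicate 2 was the lowest db/db array and replicate 3 the highest, as in the mitotic members. Single markers did not all follow this order. Of the erythroid markers, Klf1 measured 5.73, 5.61 and 5.23 and Gata1 2.93, 3.27 and 3.49 in db/db replicates 1, 2 and 3. Slc4a1, at 7.10, 6.86 and 7.61, did follow it, but it is also in the collecting duct list. The same separation of db/db from db/m held for the 6 mesangial and pericyte markers (43.61 to 44.16 in db/db+TSF, 44.42 to 44.82 in db/db and 43.33 to 43.57 in db/m), the 5 podocyte markers (33.01 to 33.55 in db/db+TSF, 32.77 to 33.34 in db/db and 31.89 to 32.64 in db/m) and, narrowly, the 8 collecting duct markers (65.71 to 66.96 in db/db+TSF, 66.78 to 67.86 in db/db and 64.85 to 66.77 in db/m). The 11 macrophage and dendritic cell markers were lower in each db/db array (56.81 to 58.83 in db/db+TSF, 59.14 to 61.46 in db/db and 61.63 to 62.08 in db/m), and proximal tubule, endothelial, and B and plasma cell markers overlapped between db/db and db/m. The part of any of these cells in the result was not tested. In whole cortex, more dividing cells and more of each RNA per dividing cell cannot be told apart.

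**Figure D3:**
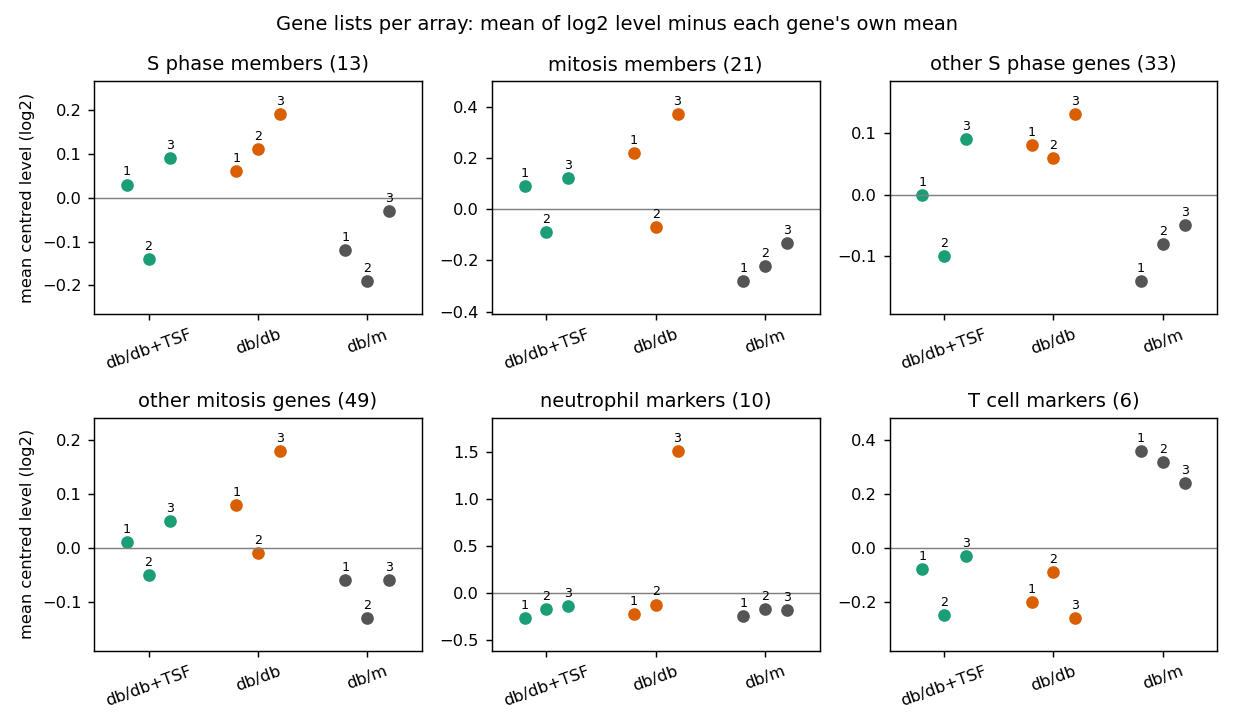
Mean centred log2 level of 6 gene lists in each array (number of measured genes in parentheses, replicate numbers above the points). Mitotic members are high in db/db replicates 1 and 3 and not in replicate 2, neutrophil markers are high in db/db replicate 3 alone, and T cell markers are lower in the 6 arrays of db/db+TSF and db/db than in db/m.

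Brightness is given beside the differences of db/db from db/m, for mitotic and S phase members apart. Within the 21 mitotic members the 11 brighter ones had a median difference of 0.56 and the 10 dimmer ones 0.26, with a correlation between mean level and difference of 0.45 (Pearson) and 0.41 (Spearman). Within the 13 S phase members the 7 brighter ones had a median of 0.20 and the 6 dimmer ones 0.13, with a correlation of -0.17 (Pearson) and -0.21 (Spearman). Whether the 2 correlations differ was not tested. These splits were chosen after the values were seen, and all members share the same arrays. Across all 37 members, where bright S phase genes and dim mitotic genes are pooled, the correlation between mean level and difference was -0.08 (Pearson) and -0.08 (Spearman), given as a description. The 18 dimmer members had a median difference of 0.23 and the 19 brighter ones 0.30. Split at the same level of 4.50, the 6850 dimmer of all tested genes had a median of -0.03 and the 10890 brighter ones 0.04. Calls were rarer among dim genes, at 0.569% against 1.36% of bright genes.

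**Figure D4:**
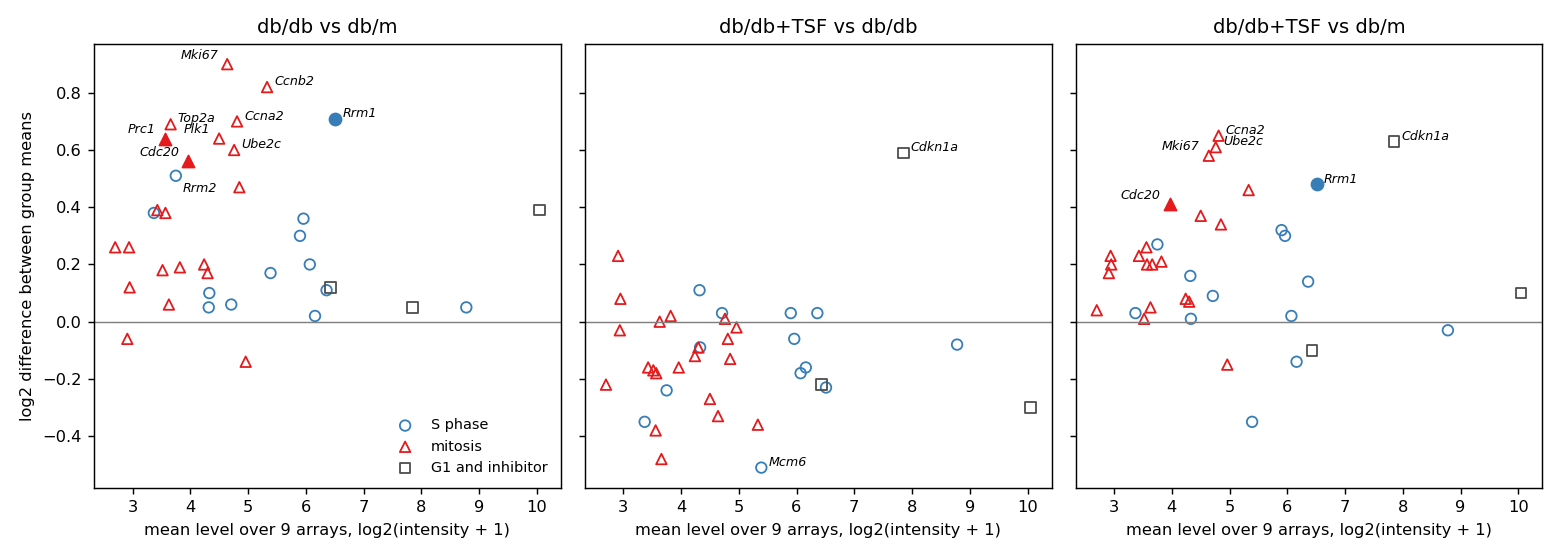
Log2 difference between group means (y) against mean level over the 9 arrays (x) for the 37 members in the 3 comparisons. Filled symbols passed an adjusted p of 0.05 (Rrm1, Cdc20 and Prc1 in db/db against db/m, Rrm1 and Cdc20 in db/db+TSF against db/m), and open symbols did not.

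The second comparison asks whether the formula changed these genes in diabetic cortex, db/db+TSF against db/db. By limma 0 of 37 members passed, against 0% of all genes tested, and 0 passed in each of the 22 alternative settings, the test without moderation included. At an unadjusted p under 0.05, 6 members were lower, against 6.74% of all genes tested, and 0 higher, against 4.98%. Of the 37 members 9 lay above 0, against 43.9% of all genes tested, and the medians were -0.13 for members and -0.02 for all genes tested. The median was -0.09 for S phase members and -0.13 for mitotic members. Split at the level of 4.50, the dimmer of all tested genes had a median of 0.05 and the brighter ones -0.06. The dimmer members had a median of -0.14 and the brighter ones -0.13.

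The 6 members of smallest p were Prc1, Cdc6, Mcm6, Top2a, Rrm1 and Ccnd1. Prc1 measured 3.49, 3.48 and 3.60 in db/db+TSF arrays, against 4.0, 3.66 and 4.05 in db/db arrays (-0.38, SE 0.13, limma adjusted p = 0.317). Cdc6 measured 3.35, 3.24 and 3.19 in db/db+TSF arrays, against 3.41, 3.76 and 3.68 in db/db arrays (-0.35, adjusted p = 0.317). Mcm6 had the largest negative difference (-0.51, SE 0.18, adjusted p = 0.327), at 5.27, 4.71 and 5.33 in db/db+TSF against 5.46, 5.44 and 5.94 in db/db. In these 3 genes no db/db+TSF array reached the lowest db/db array.

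Top2a measured 3.67, 3.29 and 3.75 in db/db+TSF arrays, against 3.91, 3.81 and 4.44 in db/db arrays (-0.48, adjusted p = 0.338). Rrm1 measured 6.56, 6.51 and 6.72 in db/db+TSF, against 6.83, 6.76 and 6.88 in db/db (-0.23, adjusted p = 0.389), and Ccnd1 differed by -0.30 (adjusted p = 0.422). In all, 8 members had groups that did not overlap on the lower side and 1, Birc5 (0.23), on the higher side, where 12.3% and 7.81% of all genes tested did so. The count on the lower side was 17 with db/db replicate 2 left out and 12 with db/db+TSF replicate 3 left out. Groups of fewer arrays separate more readily in any gene. The share over all genes was not counted with these arrays left out, so whether the rise is particular to the members was not tested. The 95% intervals of the differences left room for changes in both directions in most members. That of Mki67 ran from -0.82 to 0.17, that of Ccnb2 from -0.74 to 0.02 and that of Ube2c from -0.41 to 0.43.

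Cdkn1a was the member with the largest positive difference, 0.59 (SE 0.49, adjusted p = 0.668). It measured 9.33, 7.52 and 7.92 in db/db+TSF arrays, against 7.33, 7.09 and 8.59 in db/db arrays, so 1 array per group was far above the others. In the treated arrays the division genes set replicate 2 apart, which was also the lowest of the 3 for Cdkn1a. In replicate 2 of db/db+TSF the level was the lowest of its group in 15 of 21 mitotic members and 6 of 13 S phase members, and its mean centred levels were -0.09 for mitosis and -0.14 for S phase, against 0.09 and 0.12 for mitosis and 0.03 and 0.09 for S phase in replicates 1 and 3. Mitotic minus S phase level was 0.06, 0.05 and 0.03 in the 3 db/db+TSF arrays, within the range of the db/db arrays. Without db/db+TSF replicate 2 the S phase median was -0.02 and the mitotic median -0.09.

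The third comparison sets formula-treated diabetic cortex against lean cortex. Rrm1 and Cdc20 rose, so 2 of 37 members passed in the higher direction, against 1.22% of all genes tested, and 0 in the lower direction, against 1.92%. This comparison shares its db/db+TSF and db/m arrays with the other two, so the 3 sets of values are not independent. Rrm1 measured 6.56, 6.51 and 6.72 in db/db+TSF arrays, against 6.08, 6.21 and 6.07 in db/m arrays (0.48, SE 0.09, 1.39-fold, limma adjusted p = 0.0203). It did not pass when db/m replicate 1 (adjusted p = 0.0731) or db/db+TSF replicate 3 (0.0907) was left out, nor without moderation (0.065).

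Cdc20 measured 4.05, 3.99 and 4.08 in db/db+TSF arrays, against 3.53, 3.71 and 3.67 in db/m arrays (0.41, SE 0.10, limma adjusted p = 0.0471). With 1 array left out it passed only without db/db replicate 2 (0.0463). The adjusted p was 0.145, 0.0716 and 0.0737 with db/m replicate 1, 2 or 3 left out. It was 0.0684 and 0.0548 for db/db replicate 1 or 3, and 0.11, 0.11 and 0.157 for db/db+TSF replicate 1, 2 or 3. It passed in 5 of the 13 settings that kept all arrays, and was lost with median scaling (0.081) or quantile normalization (0.0631). Ccna2 (0.65, adjusted p = 0.123) and Ube2c (0.61, adjusted p = 0.124) had the next smallest p. Both had groups that did not overlap. Ccna2 passed without db/db replicate 2 (0.0365) and Ube2c without db/db replicate 3 (0.0374).

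At an unadjusted p under 0.05, 9 members were higher, against 7.56% of all genes tested, and 0 lower, against 9.63%. Over all members 32 of 37 lay above 0, against 50% of all genes tested, with a median of 0.20 beside 0 over all genes tested. Groups did not overlap on the higher side in 11 of 37, against 9.76% of all genes tested. The count was 21 of 37 with db/db+TSF replicate 2 left out and 17 with db/m replicate 3 left out. The share over all genes, which also rises when a group has fewer arrays, was not counted with these arrays left out. The mitotic median was 0.21 (20 of 21 above 0) and the S phase median 0.09 (10 of 13 above 0). Split at the level of 4.50, dimmer members had a median of 0.19 and brighter ones 0.30, against 0.03 and -0.02 over all tested genes. The correlation of mean level with difference was 0.44 (Pearson) in mitotic members and -0.02 in S phase members. Mcm6 had the lowest difference, -0.35 (adjusted p = 0.362), with 5.27, 4.71 and 5.33 in db/db+TSF against 5.57, 5.45 and 5.32 in db/m. The other S phase members below 0 were Mcm7 (-0.14) and Pcna (-0.03), and Mki67 differed by 0.58 (adjusted p = 0.217). Mitotic minus S phase level was 0.06, 0.05 and 0.03 in db/db+TSF, against -0.16, -0.03 and -0.11 in db/m. Here the lowest treated array was above the highest lean one, which is a description of the 3 arrays in each group.

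Other genes of the same pathways are set beside the members. They were taken from textbook knowledge, but with earlier results of these data known, so they are not an independent background. Of 31 tested S phase genes outside the list (origin, fork and nucleotide genes) 0 passed in each of the 3 comparisons. In db/db against db/m 6 were at an unadjusted p under 0.05, all higher, against 8.15% of all genes tested. The median difference of these outside genes was 0.18 in db/db against db/m, close to the 0.17 of the S phase members. The smallest p was that of Tk1, thymidine kinase (0.47, adjusted p = 0.168). Between db/db+TSF and db/db 3 were at an unadjusted p under 0.05, all lower in db/db+TSF, against 6.74% of all genes tested. The smallest p was that of Rfc3, a clamp loader subunit (-0.40, adjusted p = 0.297). Set against db/m, db/db+TSF had 3 at an unadjusted p under 0.05, all higher, against 7.56% of all genes tested. Tipin, a fork protection gene, had the smallest p (0.39, adjusted p = 0.141).

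Of 45 tested mitotic genes outside the list 2 rose in db/db against db/m, against 0.592% of all genes tested. Racgap1, which pairs with Kif23 in cytokinesis, measured 4.34, 4.19 and 4.34 in db/db arrays, against 3.89, 3.75 and 3.81 in db/m arrays (0.47, limma adjusted p = 0.0284). Smc2, a condensin subunit, measured 4.42, 4.41 and 4.67 in db/db, against 3.99, 4.06 and 3.70 in db/m (0.58, adjusted p = 0.042). Their calls also hung on single arrays. Racgap1 was lost without db/m replicate 1, 2 or 3 (0.0622, 0.0809 and 0.0626), db/db replicate 1 or 3 (0.106 and 0.105) or db/db+TSF replicate 3 (0.0562), and Smc2 in all 9 fits with 1 array left out (0.0515 to 0.135). The median over the 49 measured was 0.11, against 0.38 in the 21 mitotic members. Outside the list the mitotic median was thus below the 0.18 of the S phase genes. This is the reverse of the order in the members, so the larger mitotic than S phase median did not extend beyond the list.

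Outside the list Spc25, a kinetochore gene, rose by 1.20 on the log2 scale in db/db+TSF against db/m (SE 0.22, limma adjusted p = 0.0153). It measured 6.40, 6.64 and 7.13 in db/db+TSF, 6.79, 6.59 and 6.18 in db/db and 5.87, 5.22 and 5.47 in db/m, so db/m was lowest with no overlap. Leaving out db/m replicate 2 (0.0507), db/m replicate 3 (0.0516) or db/db+TSF replicate 3 (0.0579) ended the call, as did the fit without moderation (0.135). Between db/db+TSF and db/db 0 of the 45 passed, and Smc2 had the smallest p (-0.38, adjusted p = 0.284). At an unadjusted p under 0.05, 4 were lower, against 6.74% of all genes tested, and 0 higher, against 4.98%.

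Among 16 tested regulators of cycle entry and checkpoints, Wee1 stood out. It encodes the kinase that holds CDK1 inactive, and it is also known as a gene driven by the circadian clock. Wee1 measured 8.0, 7.98 and 8.11 in db/db+TSF arrays, 7.72, 7.51 and 7.65 in db/db arrays and 6.94, 6.95 and 6.54 in db/m arrays. The 3 groups did not overlap. It rose in db/db against db/m (0.82, SE 0.12, limma adjusted p = 0.0093, lost without db/db replicate 1 at 0.0536 and without moderation at 0.121) and in db/db+TSF against db/m (1.22, SE 0.12, adjusted p = 5.74e-04), where it passed in every one of the 22 alternative settings. The difference of db/db+TSF from db/db, 0.40, did not pass (adjusted p = 0.284). Of the other regulators tested, which include Cdk4, Cdk6, the Rb family and further E2F genes, none passed.

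None of the 6 other CDK inhibitor genes passed in any comparison. The smallest p values were those of Cdkn1b (p27), at 0.24 in db/db against db/m (adjusted p = 0.316) and -0.25 for db/db+TSF minus db/db (adjusted p = 0.386), and of Cdkn1c (p57), at 0.30 in db/db+TSF against db/m (adjusted p = 0.26). Of 11 tested p53 target genes, listed because Cdkn1a is one, 0 passed in each comparison. At an unadjusted p under 0.05 there was 1 higher in db/db against db/m, against 8.15% of all genes tested. In db/db+TSF than in db/db 2 were higher, against 4.98%, and 1 lower, against 6.74%. In db/db+TSF against db/m 4 were higher, against 7.56%. Btg2 had the smallest p in db/db against db/m (0.35, adjusted p = 0.322). Plk3 had it for the formula within db/db mice, at 8.07, 7.29 and 7.40 in db/db+TSF against 6.69, 6.73 and 6.69 in db/db (0.88, SE 0.21, adjusted p = 0.245), and its highest array, db/db+TSF replicate 1, was also the highest for Cdkn1a. Against db/m the smallest p of db/db+TSF was that of Trp53inp1 (0.73, adjusted p = 0.0991).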

How the data were processed

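Kidney cortex RNA was measured on 9 Affymetrix arrays, 3 per group. The deposited values are intensity values on a linear scale, 1 per probe set, and for the authors' steps the submitters' processing notes name 2 programs, Transcriptome Analysis Console and Affymetrix Expression Console, with no role. How background was corrected and arrays were normalized is not given in the sources used here. No detection calls were used, and the number of arrays limits the precision.

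Probe sets with 1 gene symbol in the platform annotation (23521 of 41345) were used, the brightest per gene, and 1814 with several symbols and those with none were not. Intensities were transformed as log2(value + 1), which understates the change of dim genes. A gene was left out when its mean was below 2.65 (log2), the 30th percentile over probe sets. The remaining 17740 genes were fitted with limma (version 3.58.1, R version 4.3.3; eBayes), with a mean for each group and all 9 arrays in 1 model. Adjusted p-values are Benjamini-Hochberg over all genes tested, with a threshold of 0.05, and come from this fit. The script was tested on simulated data. Members that passed or not are counted beside the share of all genes tested; no test was run over a list. The members, the other gene lists, the comparisons and the motifs were chosen with earlier results of these data known. All members are named, and of each other list the genes past the threshold (up to 4 per comparison) or, with none, the gene of smallest p. The intensity median of the arrays ran from 10.3 to 11.2. Alternatives covered the pseudocount, filter, probe set, scaling, variance model, array weights, arrays in the fit, replicate block, moderation, list members and leaving out each array. Promoter sequences are those of RefSeq (GRCm38.p6).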

Additional observations from a re-analysis of the deposited data

How the results depend on the processing

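No detection calls were used, so whether a dim probe set, as most mitotic members had, was above background was not tested. Of the members, Rrm1 in db/db against db/m passed under all 22 alternatives, while between db/db+TSF and db/db 0 members passed under any of them. In db/db against db/m 3 members passed in the fit reported; 1 passed when only the 2 groups compared were fitted, and 1 without moderation. With the replicate number as a block 5 passed there, Rrm1, Cdc20, Ccnb2, Mki67 and Plk1, while Prc1 did not (adjusted p = 0.0601). Over all genes tested 137 passed in that block fit, fewer than the 187 of the fit reported, and 130 with only the 2 groups fitted. In db/db+TSF against db/m the block fit passed 1 member, Rrm1, and 434 of all genes tested. Deviations of same-numbered arrays correlated between -0.08 and 0.15, and those of differently numbered arrays between -0.16 and 0.16. Not every array correlated best with its own number. The labels name no batch, and whether same-numbered arrays share one was not tested. Over all genes tested, 187 passed in db/db against db/m, 26 without moderation and 72 to 197 with 1 array left out; in db/db+TSF against db/m 556 passed, 73 without moderation and 213 to 562 with 1 array left out. In db/db+TSF against db/m, where 2 passed, 1 passed with a pseudocount of 8, with no filter, with median scaling, with quantile normalization or with an intensity trend, and 0 without moderation. With 1 array left out, the count was 1 to 5 in db/db against db/m (5 without db/db replicate 2) and 0 to 3 in db/db+TSF against db/m (0 without db/m replicate 1 or db/db+TSF replicate 3, and 3 without db/db replicate 2). The median mitotic difference in db/db against db/m was 0.56 in place of 0.38 when genes under the 50th percentile were left out, which keeps the brighter members. Mitotic minus S phase level in db/db+TSF against db/m was 0.09 in place of 0.15 with a pseudocount of 8. Dropping Mki67, Top2a and Ccna2 from the mitotic genes and E2f1, Ccne1 and Ccne2 from the S phase genes gave medians of 0.26 and 0.20 in db/db against db/m. For calls that changed, the cause was not tested. Counting groups that do not overlap with each array left out, and medians over filtered members, were chosen after seeing the data.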
